A study of Homo sapiens with 12 samples.

Results

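The aminoacyl-tRNA synthetases are the enzymes that attach each amino acid to its tRNA before translation. The 39 genes described here were taken by name: 20 cytosolic synthetases, 16 mitochondrial synthetases, whose symbols end in 2, and the scaffold genes AIMP1, AIMP2 and EEF1E1. They are 39 of the 57353 gene names in the count table, and all 39 were among the 12998 genes that passed the filter on low counts. RNA-seq had been done on MOLM-13 cells, an established human acute myeloid leukaemia line that carries FLT3-ITD and is labelled as wild type in genotype. Cells received vehicle or 3 nM quizartinib (AC220), an inhibitor of the FLT3 kinase, and RNA was taken after 15 hr. The medium was either RPMI, the regular medium, or hBMSC-CM, a mix of fresh medium with medium in which HS-5 cells, a human stromal line from bone marrow, had grown. Each of the 4 groups had 3 replicates, which gave 12 libraries. All groups were of the same cell line and no stromal cells were cultured with it, so the comparison of media is one of medium that HS-5 cells had changed, without cell contact. Cells treated with an ATM inhibitor, which the series also describes, were not analysed here. The comparisons ask how these genes responded to FLT3 inhibition and whether that response differed in stroma-conditioned medium.

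Amino acids are charged by one set of synthetases in the cytosol, and in most cases a separate nuclear gene encodes the enzyme for the mitochondrial matrix. The first letter of a symbol is the one-letter code of the amino acid, so YARS is the tyrosyl-tRNA synthetase and GARS the glycyl-tRNA synthetase. Several cytosolic synthetases are held together in the multi-tRNA synthetase complex by the scaffold proteins encoded by AIMP1, AIMP2 and EEF1E1. The other cytosolic enzymes work outside that complex, and VARS binds an elongation factor. Growing and dividing cells need much of this activity, and several cytosolic synthetase genes are known targets of ATF4, the transcription factor of the amino acid and integrated stress responses. GARS and KARS each encode both the cytosolic and the mitochondrial enzyme and were counted here as cytosolic.

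Total counts lay between 19966546 and 31546104 per library, and the limit for a gene with a count of 0, taken as 3 counts, was 0.0951 to 0.150 CPM, the count scaled to the size of the library. Levels below are CPM scaled by TMM, a factor per library that equalises the bulk of genes, so each is relative to the other mRNAs of the library and not an amount per cell. In bulk RNA, fewer cells of a kind and less RNA per cell cannot be told apart. The summed level of 5 myeloid genes (CD33, FLT3, PTPRC, MPO and SPI1) was 655 CPM with vehicle and 1171 CPM with quizartinib in RPMI, and 560 and 795 CPM in hBMSC-CM. The 10 fibroblast genes listed for HS-5 cells summed to 1.41, 5.85, 1.27 and 2.18 CPM in the same order, of which COL1A1 made up 0.177, 4.61, 0.225 and 0.992 CPM, and COL3A1, DCN, LUM, THY1 and POSTN were at 0. Genes encoded in mitochondrial DNA took a share of counts of 0.683% to 0.790% with vehicle and 1.016% to 1.102% with quizartinib in RPMI, and 0.458% to 0.614% and 0.683% to 0.947% in hBMSC-CM. It moved with the treatment, as did the myeloid and fibroblast sums, and the part of any of these in the results was not tested. The study describes its replicates as biological, and the labels do not say whether they came from separate cultures, so p-values measure the spread between these samples.

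Quizartinib lowered most synthetase mRNAs in RPMI, among them nearly all cytosolic enzymes and all of the scaffolds. Of the 39 genes 32 fell, 3 rose and 4 were not called, by edgeR's quasi-likelihood test at a Benjamini-Hochberg adjusted p under 0.05. Over all 12998 genes tested, 39.2% fell and 40.1% rose in the same contrast. All but 1 of the 20 cytosolic synthetases fell, all 3 scaffold genes fell, and 10 of the 16 mitochondrial synthetases fell while 2 rose. The median log2 fold change was -0.99 for the cytosolic synthetases, -1.59 for the scaffolds and -0.36 for the mitochondrial synthetases, against 0.02 for all genes tested. The difference between the classes was not tested. A fall of at least 2-fold was seen in 15 of the 39 genes, 10 of them cytosolic synthetases, 2 scaffolds and 3 mitochondrial synthetases, where 11.8% of all genes tested fell that far. The largest rise was that of HARS2, 1.41-fold.

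Summed over the class, the 20 cytosolic synthetases had 5528 ± 66.0 CPM with vehicle and 3034 ± 1.83 CPM with quizartinib in RPMI (mean ± SD, n = 3), so the level with the inhibitor was 54.9% of that with vehicle. The sum of the scaffolds went from 149.5 ± 0.809 to 74.1 ± 1.44 CPM, or to 49.6%, and that of the mitochondrial synthetases from 889 ± 11.1 to 675 ± 10.5 CPM, or to 75.9%. Every quizartinib library in RPMI was below every vehicle library in each class. The 39 genes together took 0.638% of all counts with vehicle and 0.390% with quizartinib.

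**Figure D1:**
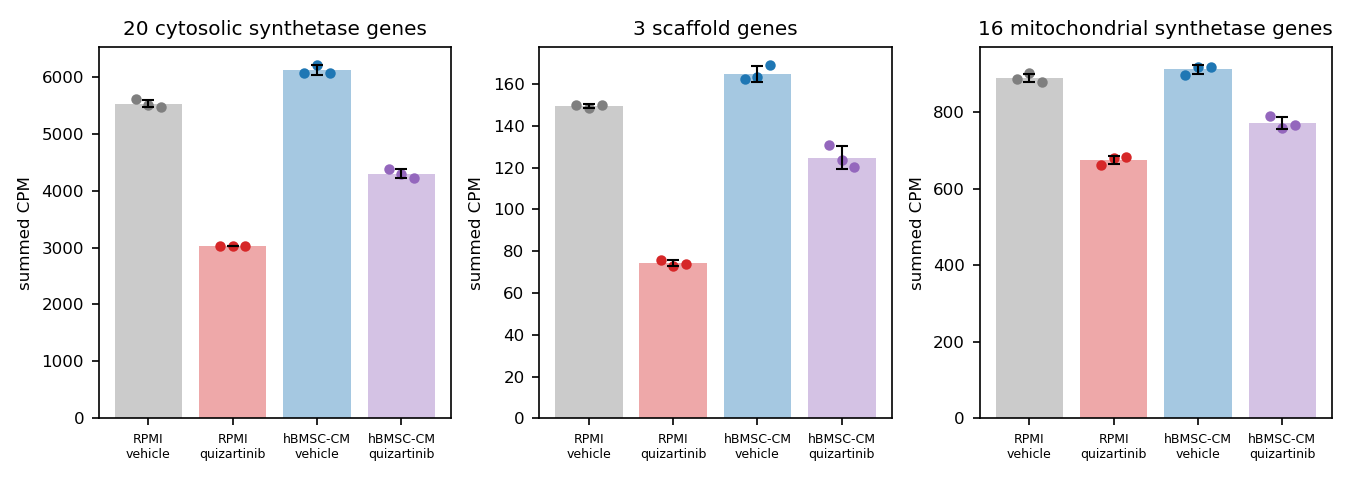
Summed CPM of the cytosolic synthetase genes, the scaffold genes and the mitochondrial synthetase genes in the 4 groups. Bars are means, error bars are SD (n = 3) and points are libraries. In each class the RPMI quizartinib bar is the lowest and the hBMSC-CM quizartinib bar lies between it and the vehicle bars, at 4298 CPM against 3034 CPM for the cytosolic class.

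Within the multi-tRNA synthetase complex, 7 of 8 synthetase genes fell with quizartinib in RPMI and their sizes differed widely. IARS, the isoleucyl-tRNA synthetase (chr9:92210207-92293854, minus strand, GRCh38), had 480.5, 493 and 478 CPM with vehicle and 170.2, 155 and 160.3 CPM with quizartinib in RPMI. In hBMSC-CM the values were 526, 537 and 555 CPM with vehicle and 317, 311 and 279.9 CPM with quizartinib. The RPMI quizartinib libraries were the lowest of all 12, the hBMSC-CM quizartinib libraries were intermediate, and no pair of groups overlapped. IARS fell on the log2 scale by 1.58 in RPMI (SE 0.05, adjusted p = 3.83e-17) and by 0.83 in hBMSC-CM (adjusted p = 5.33e-12). MARS, the methionyl-tRNA synthetase that also charges the initiator tRNA, had 292, 282 and 283 CPM with vehicle and 101, 99.3 and 101 CPM with quizartinib in RPMI. Vehicle in hBMSC-CM gave 330.2, 321 and 337 CPM, and quizartinib there gave 165, 158 and 157 CPM. Here too the groups did not overlap, and MARS fell by 1.51 in RPMI and by 1.04 in hBMSC-CM on the log2 scale (adjusted p = 2.2e-18 and 5.64e-15). It was the only one of the 39 genes to fall at least 2-fold in hBMSC-CM. Of its canonical transcript, 60 exonic bases lie opposite DDIT3, and strand use in the counting is not given in the sources used here. LARS, the leucyl-tRNA synthetase, had 354, 366 and 359 CPM with vehicle and 155, 142 and 142 CPM with quizartinib in RPMI. Its levels in hBMSC-CM were 407, 422 and 406 CPM without the inhibitor and 301, 295 and 281 CPM with it. LARS fell by 1.30 in RPMI and by 0.49 in hBMSC-CM on the log2 scale (adjusted p = 1.32e-16 and 2.72e-09), again with no overlap between groups. The smaller falls in RPMI were log2 fold changes of -0.60 for RARS, -0.50 for KARS, -0.45 for EPRS, the fused glutamyl- and prolyl-tRNA synthetase, and -0.32 for DARS.

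QARS, the glutaminyl-tRNA synthetase (chr3:49095932-49105130, minus strand), moved the other way. QARS had 405, 369.7 and 379.9 CPM with vehicle and 459.8, 497 and 502 CPM with quizartinib in RPMI. With hBMSC-CM as the medium, the levels stood at 389, 393 and 369 CPM for vehicle and 408, 410.4 and 406 CPM for quizartinib. Every quizartinib library in RPMI was above every vehicle library, and the hBMSC-CM quizartinib libraries lay just above those with vehicle. QARS rose by 0.34 on the log2 scale in RPMI (SE 0.0455, adjusted p = 8.12e-07). For its log2 fold change of 0.09 in hBMSC-CM, the 95% interval of 0.000998 to 0.18 is a normal one, narrower than the test implies. By edgeR's test this change missed the threshold, with an unadjusted p of 0.0612 and an adjusted p of 0.0863. That miss turned into a call with scaling by library size only (0.20), with upper-quartile factors (0.17) and with a filter of a mean CPM of 10 (0.15). QARS was the only cytosolic synthetase to rise with quizartinib in RPMI.

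Outside the complex all 12 cytosolic synthetase genes fell in RPMI, with log2 fold changes from -2.08 to -0.23. FARSB and FARSA encode the beta and alpha subunits of the phenylalanyl-tRNA synthetase, and VARS the valyl-tRNA synthetase. FARSB (chr2:222566899-222656092, minus strand) had 88.8, 89.9 and 88.2 CPM with vehicle and 21.2, 21.4 and 20.3 CPM with quizartinib in RPMI. In hBMSC-CM the values were 100.4, 99.0 and 93.6 CPM with vehicle and 58.7, 55.4 and 54.2 CPM with quizartinib. The 4 groups were separate, with RPMI quizartinib lowest. FARSB had the largest fall of the 39 genes in RPMI, by 2.08 on the log2 scale or 4.24-fold (SE 0.05, adjusted p = 4.85e-19), and fell by 0.80 in hBMSC-CM (adjusted p = 3.23e-12). VARS (chr6:31777518-31795752, minus strand) had 405, 395 and 399.5 CPM with vehicle and 91.6, 97.7 and 104 CPM with quizartinib in RPMI. Vehicle in hBMSC-CM gave 452, 417 and 394 CPM, and quizartinib there gave 256, 252 and 259 CPM. The vehicle libraries of the media overlapped each other, and both quizartinib groups lay below them without overlap. VARS fell by 2.03 in RPMI and by 0.72 in hBMSC-CM (adjusted p = 1.35e-18 and 7.41e-11). FARSA had 191, 180.1 and 179.8 CPM with vehicle and 59.9, 63.5 and 64.3 CPM with quizartinib in RPMI. Its levels in hBMSC-CM were 222, 216 and 235 CPM without the inhibitor and 156, 143 and 149.5 CPM with it. FARSA fell by 1.55 in RPMI and by 0.59 in hBMSC-CM (adjusted p = 2.89e-17 and 5.01e-10), with all 4 groups apart.

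Since the enzyme is built from both subunits, the CPM of FARSA was divided by that of FARSB in each library. The ratio was 2.15, 2.00 and 2.04 with vehicle and 2.82, 2.96 and 3.17 with quizartinib in RPMI. In hBMSC-CM it was 2.22, 2.19 and 2.51 with vehicle and 2.66, 2.58 and 2.76 with quizartinib. Every quizartinib library had a higher ratio than every vehicle library, so FARSB mRNA was lowered further than FARSA mRNA. A test of 3 libraries against 3 cannot go below an exact permutation p of 0.10, and none was run on the ratio.

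The remaining cytosolic synthetases outside the complex fell in RPMI by log2 fold changes of YARS (-1.33), GARS (-1.30), AARS (-1.13), TARS (-1.03), WARS (-0.96), NARS (-0.88), SARS (-0.60), HARS (-0.53) and CARS (-0.23). GARS was the one among these with the largest fall in hBMSC-CM (-0.97), followed by YARS (-0.76) and AARS (-0.66). CARS, the cysteinyl-tRNA synthetase, had 88.7, 76.4 and 82.4 CPM with vehicle and 70.0, 71.1 and 69.8 CPM with quizartinib in RPMI. With hBMSC-CM as the medium, the levels stood at 85.0, 82.9 and 77.1 CPM for vehicle and 64.8, 63.7 and 58.4 CPM for quizartinib. CARS was the only cytosolic synthetase outside the complex that had a lower level with quizartinib in hBMSC-CM than with quizartinib in RPMI. Its log2 fold change for quizartinib was -0.23 in RPMI and -0.39 in hBMSC-CM and the interaction was not called (-0.16, adjusted p = 0.103). Without hBMSC-CM vehicle replicate 3 or RPMI vehicle replicate 1 that interaction was called, at -0.20 and -0.23. The 12 cytosolic synthetases listed from general knowledge as ATF4 targets (EPRS, IARS, LARS, MARS, AARS, CARS, GARS, NARS, SARS, TARS, WARS and YARS) all fell in RPMI, by log2 fold changes from -1.58 to -0.23 with a median of -1.08. Of the 8 others 7 fell, with a median of -0.57 and a range from -2.08 in FARSB to 0.34 in QARS, and FARSB, VARS and FARSA among them fell by at least 2-fold. The list was written with earlier results of these data known.

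**Figure D2:**
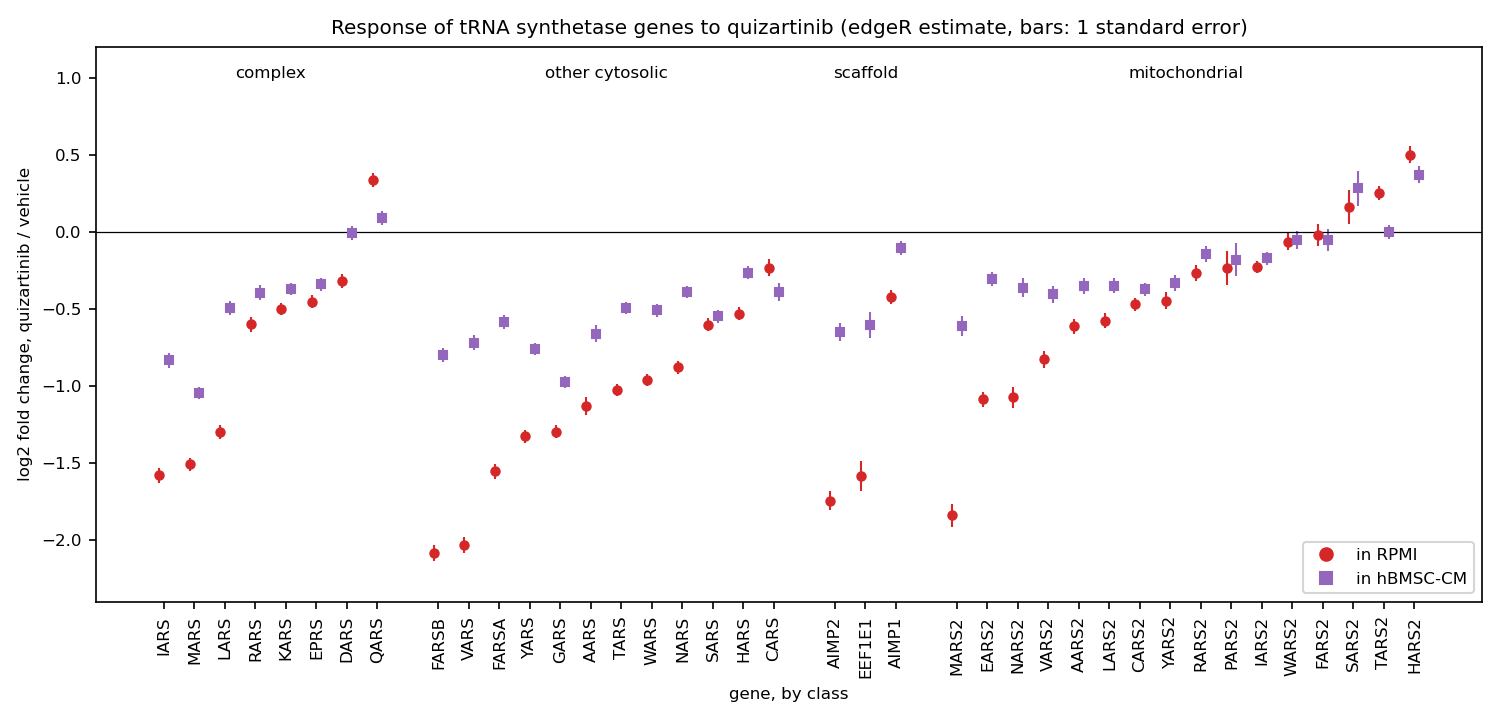
Log2 fold change of quizartinib against vehicle for the 39 genes by class, in RPMI (red circles) and hBMSC-CM (purple squares), with bars of 1 standard error from the edgeR fit. Most circles lie below 0 and below their squares, with FARSB lowest at -2.08, while QARS, HARS2, TARS2 and SARS2 are above 0 in RPMI.

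Since many members moved together, their promoters were read from RefSeq (GRCh38.p14). This gave a window of 250 bases before and 50 bases from the start for 33 of the 39 genes. No window was available for LARS, VARS, YARS, DARS, AARS2 and VARS2, so these were not searched. The letters TGATGNAA, the form of the C/EBP-ATF response element to which ATF4 binds with a C/EBP partner, were searched on both strands. They were present in 3.67% of all 27303 promoters and in 7 of the 33 members, of which 6 were cytosolic synthetases (IARS and MARS among 6 promoters of the complex, and AARS, CARS, NARS and TARS among 10 others) and 1 was mitochondrial (YARS2, among 14). The 6 cytosolic ones are shown to let their matches be compared, written on the strand of the gene from 5′ to 3′ with the match in capitals, which is TTGCATCA, the reverse complement, in 5 of them and the forward form in NARS.
TARS, chr5:33440956-33440985, plus strand: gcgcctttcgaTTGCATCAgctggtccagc
MARS, chr12:57488053-57488082, plus strand: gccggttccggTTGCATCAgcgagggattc
IARS, chr9:92293692-92293721, minus strand: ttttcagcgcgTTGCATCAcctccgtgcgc
CARS, chr11:3057407-3057436, minus strand: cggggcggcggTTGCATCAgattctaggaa
AARS, chr16:70289675-70289704, minus strand: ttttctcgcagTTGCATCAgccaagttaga
NARS, chr18:57621804-57621833, minus strand: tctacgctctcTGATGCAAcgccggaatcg
In 5 of these windows the match lay within 15 bases of the start, and in AARS 187 bases before it. The 6 genes share the same 8 letters, on either strand, and differed in response, from a log2 fold change of -1.58 in IARS to -0.23 in CARS with quizartinib in RPMI. Among the promoters searched, those of FARSB and FARSA held no such match. Whether a match goes with the response was not tested. A match is a description of letters and not a measured binding site.

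All 3 scaffold genes fell in RPMI. AIMP2 encodes the scaffold protein around which the complex is assembled, EEF1E1 a small subunit also called p18, and AIMP1 the subunit p43. AIMP2 (chr7:6009255-6023834, plus strand) had 69.8, 66.7 and 68.2 CPM with vehicle and 19.0, 20.8 and 21.5 CPM with quizartinib in RPMI. In hBMSC-CM the values were 78.2, 75.4 and 82.5 CPM with vehicle and 54.6, 48.6 and 46.9 CPM with quizartinib. The groups were apart from each other, and AIMP2 fell by 1.74 in RPMI (SE 0.0629, adjusted p = 3.32e-16) and by 0.65 in hBMSC-CM (adjusted p = 3.2e-09) on the log2 scale. Of the 1198 bases of its canonical transcript, 532 lie opposite exons of EIF2AK1, so without known strand use its counts are uncertain. EEF1E1 had 15.5, 17.8 and 16.4 CPM with vehicle and 6.44, 5.08 and 4.93 CPM with quizartinib in RPMI. Vehicle in hBMSC-CM gave 19.4, 18.8 and 21.2 CPM, and quizartinib there gave 13.3, 13.2 and 12.5 CPM. The groups did not overlap, and EEF1E1 fell by 1.59 in RPMI and by 0.60 in hBMSC-CM (adjusted p = 2.92e-12 and 2.64e-06). It shares 393 exonic bases with a readthrough gene, EEF1E1-BLOC1S5, on the same strand. AIMP1 had 64.8, 64.0 and 65.3 CPM with vehicle and 50.2, 47.0 and 47.4 CPM with quizartinib in RPMI. Its levels in hBMSC-CM were 64.7, 69.1 and 65.5 CPM without the inhibitor and 62.7, 61.7 and 60.7 CPM with it. AIMP1 fell by 0.42 in RPMI (adjusted p = 2.78e-08), less than the other scaffolds. In hBMSC-CM its log2 fold change of -0.10 passed narrowly (adjusted p = 0.0467), and the call was lost in 12 alternatives, among them the replicate block (-0.10), each hBMSC-CM quizartinib library left out in turn (-0.12, -0.10 and -0.09), hBMSC-CM vehicle replicate 2 (-0.08) or 3 (-0.11) left out, and RPMI vehicle replicate 2 left out (-0.10).

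The mitochondrial synthetases were more varied. In RPMI 10 fell, HARS2 and TARS2 rose, and FARS2 (-0.02), PARS2 (-0.23), SARS2 (0.16) and WARS2 (-0.06) were not called. A fall of PARS2 was called without RPMI quizartinib replicate 2 (-0.34), RPMI vehicle replicate 3 (-0.29) or hBMSC-CM quizartinib replicate 1 (-0.24) and with no filter on low counts (-0.34), a fall of WARS2 with no filter (-0.17), and a rise of SARS2 with library size only (0.25) or upper-quartile factors (0.26). MARS2, the mitochondrial methionyl-tRNA synthetase (chr2:197705369-197708395, plus strand, a gene of 1 exon), had 37.0, 36.5 and 36.1 CPM with vehicle and 9.97, 9.73 and 11.1 CPM with quizartinib in RPMI. With hBMSC-CM as the medium, the levels stood at 43.1, 43.6 and 43.1 CPM for vehicle and 30.8, 24.9 and 29.1 CPM for quizartinib. The groups were separate, and its fall in RPMI, by 1.84 on the log2 scale (SE 0.0748, adjusted p = 2.53e-15), was the largest of the mitochondrial class. In hBMSC-CM it fell by 0.61 (adjusted p = 5.86e-08). EARS2, the mitochondrial glutamyl-tRNA synthetase, had 57.3, 56.8 and 56.8 CPM with vehicle and 25.9, 27.1 and 27.5 CPM with quizartinib in RPMI. In hBMSC-CM the values were 59.4, 61.0 and 62.0 CPM with vehicle and 50.1, 49.8 and 47.5 CPM with quizartinib. EARS2 fell by 1.09 in RPMI and by 0.31 in hBMSC-CM (adjusted p = 1.23e-14 and 6.67e-06), with quizartinib libraries below the vehicle libraries in both media. NARS2, the mitochondrial asparaginyl-tRNA synthetase, had 32.2, 34.6 and 31.9 CPM with vehicle and 16.3, 15.2 and 15.3 CPM with quizartinib in RPMI. Vehicle in hBMSC-CM gave 35.3, 40.1 and 40.0 CPM, and quizartinib there gave 30.9, 28.5 and 29.99 CPM. NARS2 fell by 1.07 in RPMI and by 0.36 in hBMSC-CM (adjusted p = 3.53e-12 and 3.15e-05), and again the treatment groups did not overlap within a medium. The other falls in RPMI were VARS2 (-0.83), AARS2 (-0.61), LARS2 (-0.58), CARS2 (-0.47), YARS2 (-0.45), RARS2 (-0.26) and IARS2 (-0.23) on the log2 scale. All exons of VARS2 lie within a long noncoding RNA on the same strand, so its counts are uncertain.

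HARS2 and TARS2, the mitochondrial histidyl- and threonyl-tRNA synthetases, rose in RPMI. HARS2 had 32.1, 36.1 and 34.3 CPM with vehicle and 48.7, 48.9 and 47.2 CPM with quizartinib in RPMI. Its levels in hBMSC-CM were 32.9, 34.1 and 32.3 CPM without the inhibitor and 44.8, 42.9 and 40.4 CPM with it. The quizartinib libraries were above the vehicle libraries in both media. HARS2 rose by 0.50 in RPMI (SE 0.0558, adjusted p = 4.84e-08) and by 0.37 in hBMSC-CM (adjusted p = 8.02e-06), and the difference between the media was not called (-0.13, adjusted p = 0.2). TARS2 had 67.5, 62.0 and 66.2 CPM with vehicle and 75.7, 77.2 and 80.9 CPM with quizartinib in RPMI. With hBMSC-CM as the medium, the levels stood at 61.7, 65.6 and 63.5 CPM for vehicle and 64.5, 62.5 and 63.5 CPM for quizartinib. The RPMI quizartinib libraries were the highest of all 12, and the other groups overlapped. TARS2 rose by 0.26 in RPMI (SE 0.0458, adjusted p = 3.34e-05) and was not called in hBMSC-CM (95% interval -0.0918 to 0.0915 on the log2 scale, adjusted p = 0.998).

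HARS2 has a neighbour that moved against it. HARS, the cytosolic histidyl-tRNA synthetase, is read from the minus strand and HARS2 from the plus strand, and their RefSeq starts, at bases 140691370 and 140691455 of chromosome 5, leave 84 bases between them. This shared interval, of which 59.5% is G or C, is shown in full because transcripts with opposite responses start at its ends. It is written on the plus strand of GRCh38.p14, with the HARS start to its left and the HARS2 start to its right.
HARS to HARS2, chr5:140691371-140691454, plus strand: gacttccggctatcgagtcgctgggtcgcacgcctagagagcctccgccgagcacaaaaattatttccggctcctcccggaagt
Across this interval, HARS had 117, 111 and 114 CPM with vehicle and 79.2, 76.4 and 80.7 CPM with quizartinib in RPMI. In hBMSC-CM the values were 123, 129.6 and 125 CPM with vehicle and 106, 104 and 104 CPM with quizartinib. The vehicle libraries were above the quizartinib libraries in each medium, the reverse of HARS2. HARS fell on the log2 scale by 0.53 in RPMI (adjusted p = 1.41e-10) and by 0.26 in hBMSC-CM (adjusted p = 8.04e-06). In GENCODE the HARS model reaches base 140691537 and the HARS2 model begins at base 140691430, so the models overlap at their 5′ ends. How reads in this overlap were counted is not given in the sources used here.

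**Figure D3:**
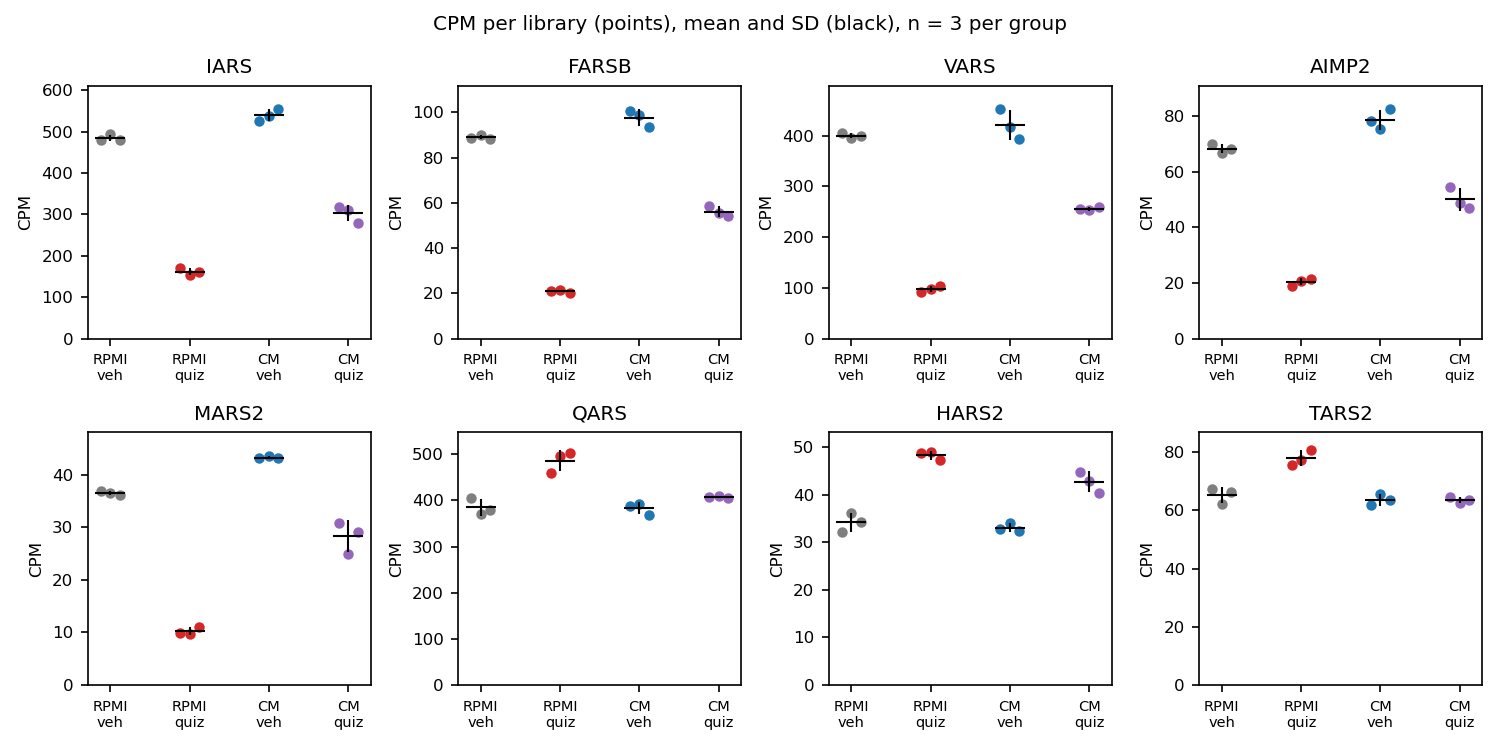
CPM of 8 of the genes in each library (points), with mean and SD in black (n = 3 in each group), for vehicle and quizartinib in RPMI and hBMSC-CM (CM). IARS, FARSB, VARS, AIMP2 and MARS2 are lowest in RPMI with quizartinib and partly back up in hBMSC-CM with quizartinib, QARS and TARS2 are highest in RPMI with quizartinib, and HARS2 is high with quizartinib in both media.

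The synthetases were then set side by side by amino acid, cytosolic against mitochondrial, in 17 pairs. In RPMI the cytosolic gene had the lower log2 fold change in 13 pairs. The widest gap was that of FARSB (-2.08) and FARS2 (-0.02), the phenylalanine enzymes, and those of IARS with IARS2 (-1.58 and -0.23) and TARS with TARS2 (-1.03 and 0.26) followed those of both phenylalanine subunits. The 4 pairs in which the mitochondrial gene was lower were MARS2 (-1.84) against MARS (-1.51), EARS2 (-1.09) against EPRS (-0.45), NARS2 (-1.07) against NARS (-0.88) and CARS2 (-0.47) against CARS (-0.23). In hBMSC-CM the cytosolic gene had the lower value in all 17, by little in the pairs of Glu, Asn and Cys. Pairs that share a gene are not independent, and differences within a pair were not tested.

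**Figure D4:**
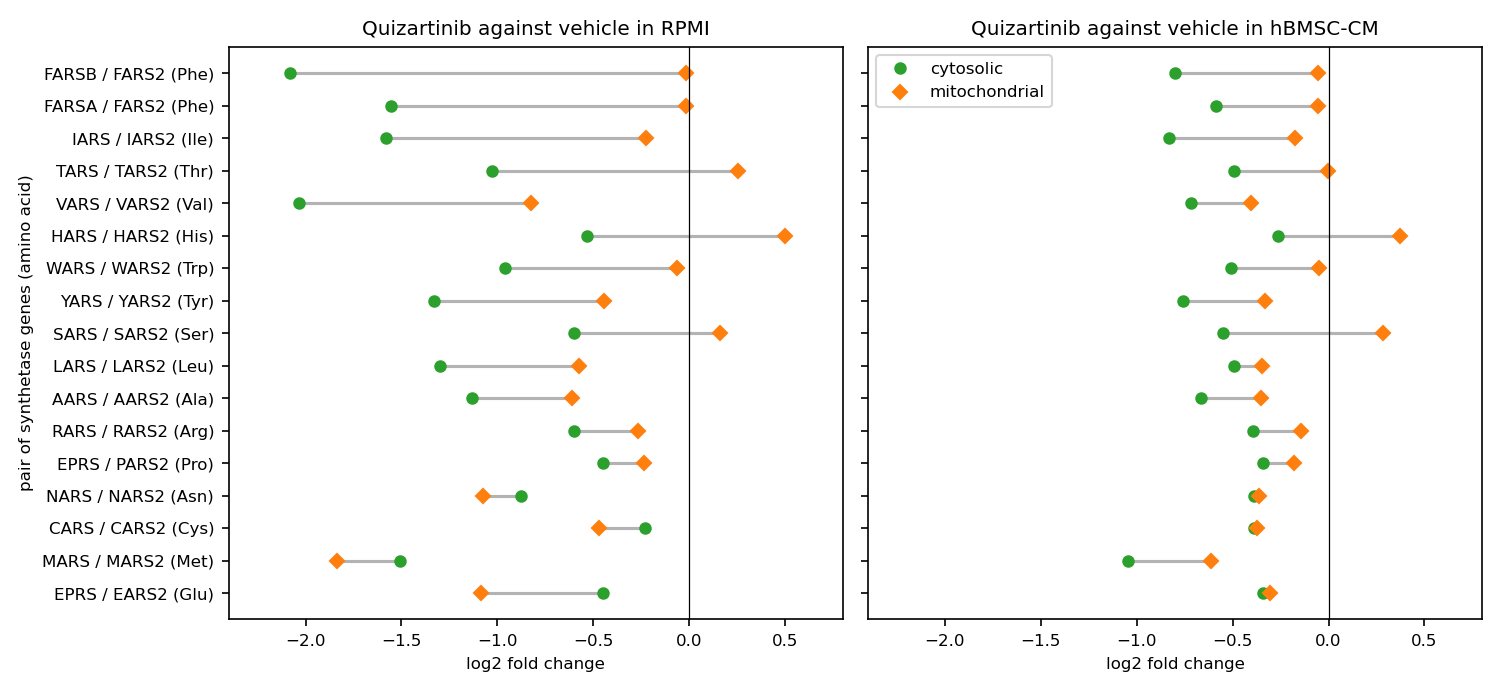
Log2 fold change of quizartinib against vehicle for cytosolic (green circles) and mitochondrial (orange diamonds) synthetases of the same amino acid, in RPMI (left) and hBMSC-CM (right). The circle is left of the diamond in 13 of 17 pairs in RPMI and in 17 of 17 in hBMSC-CM.

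In hBMSC-CM quizartinib lowered almost as many of the genes, by smaller amounts. Of the 39 genes 31 fell and 2 rose, against 33.7% and 33.4% of all genes tested, and the median log2 fold change of the 39 was -0.37. Among the cytosolic synthetases 18 fell and DARS (-0.01, 95% interval -0.097 to 0.082) and QARS were not called. All 3 scaffold genes fell, with the limit given for AIMP1, and so did 10 mitochondrial synthetases. The class medians were -0.50 for the cytosolic synthetases, -0.60 for the scaffolds and -0.24 for the mitochondrial synthetases. Only MARS fell 2-fold or more, where 2.03% of all genes tested did. The 2 that rose were HARS2 and SARS2, the mitochondrial seryl-tRNA synthetase. SARS2 had a log2 fold change of 0.28 (adjusted p = 0.0338), and the call was lost with the DESeq2 Wald test (0.27), with no filter (0.25), without any 1 of the hBMSC-CM quizartinib libraries (0.30, 0.29 and 0.27) and without hBMSC-CM vehicle replicate 1 (0.28) or 2 (0.22). SARS2 shares 1492 of its 1924 transcript bases with another annotated gene on the same strand and is uncertain. The fall of RARS2 (-0.14) was lost without hBMSC-CM quizartinib replicate 1 (-0.12) or hBMSC-CM vehicle replicate 2 (-0.13), and with 3 other scalings or filters. The summed level with quizartinib was 70.3% of that with vehicle for the cytosolic synthetases, 75.6% for the scaffolds and 84.6% for the mitochondrial synthetases.

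Among genes that fell in RPMI, the log2 fold change in hBMSC-CM was divided by that in RPMI. The median ratio was 0.53 for the 19 cytosolic synthetases, 0.66 for the 7 of the complex, 0.51 for the 12 outside it and 0.56 for the 10 mitochondrial synthetases. Over all 5096 genes that fell in RPMI it was 0.49. Single synthetases that fell ranged from 0.0234 in DARS to 1.69 in CARS, and the scaffolds had 0.246 (AIMP1), 0.373 (AIMP2) and 0.38 (EEF1E1). The genes were chosen by the denominator, so these ratios are a description.

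With quizartinib in both arms, hBMSC-CM had the higher level of most synthetase genes. This comparison shares its RPMI libraries with that of quizartinib against vehicle in RPMI, so the values are given beside each other and not as separate evidence. Of the 39 genes 30 were higher and 4 lower, against 35.5% and 34.3% of all genes tested, with a median log2 difference of 0.40. Of the cytosolic synthetases 18 were higher and 2 lower (median 0.65), all 3 scaffolds were higher (median 1.24), and 9 mitochondrial synthetases were higher and 2 lower (median 0.17, or 0.103 without RPMI quizartinib replicate 1). A level at least 2-fold higher was seen in 6 genes, where 7.15% of all genes tested reached it: MARS2 (1.47), FARSB (1.42), VARS (1.39), AIMP2 (1.30), FARSA (1.26) and EEF1E1 (1.24) on the log2 scale. LARS was close to that size (1.00), and NARS2 (0.93), IARS (0.91) and EARS2 (0.87) came next. The 4 that were lower were TARS2 (-0.29), QARS (-0.25), HARS2 (-0.17) and CARS (-0.17), of which the first 3 had risen with quizartinib in RPMI. Without hBMSC-CM quizartinib replicate 3 only 2 were lower, since HARS2 (-0.13) and CARS (-0.12) were no longer called. The call of AARS2 as higher (0.14) was also lost without that library (0.11) and without RPMI quizartinib replicate 1 (0.09).

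Whether the response to quizartinib itself differed between the media was tested by the interaction, the log2 fold change in hBMSC-CM minus that in RPMI. It was positive and called for 24 of the 39 genes and negative and called for 2, where 26.1% and 19.2% of all genes tested were. The positive calls were 15 cytosolic synthetases, all 3 scaffolds and 6 mitochondrial synthetases. The largest were VARS (1.31, SE 0.0713, adjusted p = 4.19e-12), FARSB (1.28, SE 0.0675, adjusted p = 2.6e-12) and MARS2 (1.23, SE 0.1, adjusted p = 2.38e-09), which had also fallen the most in RPMI, from libraries that both values share. AIMP2 (1.09), EEF1E1 (0.98) and FARSA (0.97) followed. The negative calls were QARS (-0.25, SE 0.0644, adjusted p = 0.00374) and TARS2 (-0.26, SE 0.0654, adjusted p = 0.0032), which rose in RPMI. For TARS2 the call was lost with no filter on low counts (-0.18), for RARS (0.21) without RPMI quizartinib replicate 2 (0.18), and for LARS2 (0.23) without RPMI vehicle replicate 1 (0.19). The difference was not called for EPRS (0.11), KARS (0.13), SARS (0.05) and CARS among the cytosolic synthetases and for 9 mitochondrial ones, and for KARS it was called without hBMSC-CM quizartinib replicate 3 (0.16) or hBMSC-CM vehicle replicate 3 (0.14) and under 3 other settings. SARS fell by 0.60 in RPMI and by 0.55 in hBMSC-CM, with a 95% interval of the difference from -0.0582 to 0.168.

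With vehicle only, most cytosolic synthetases were slightly higher in hBMSC-CM. Of the 39 genes 20 were higher in hBMSC-CM and 0 lower by edgeR, against 16.6% and 15.5% of all genes tested. At an unadjusted p under 0.05, 21 were higher and 2 lower (AARS2 and WARS2, chosen here after their values were seen), and with limma-trend, limma-voom or the Wald test of DESeq2 the count was also 0. The 20 called higher were 15 cytosolic synthetases, 2 scaffolds and 3 mitochondrial synthetases. The median log2 difference was 0.15 for the cytosolic synthetases and 0.02 for the mitochondrial ones, and the largest was that of WARS, the tryptophanyl-tRNA synthetase (0.34, adjusted p = 2.08e-06), followed by FARSA (0.29) and EEF1E1 (0.26). The cytosolic sum in hBMSC-CM was 111% of that in RPMI, the scaffold sum 110% and the mitochondrial sum 103%. Differences of this size are close to what these libraries resolve. The call of FARSB was lost without hBMSC-CM vehicle replicate 1 (0.11) or 2 (0.13) or RPMI vehicle replicate 1 (0.14) or 3 (0.13), that of AARS without hBMSC-CM vehicle replicate 1 (0.16) or 2 (0.12) or RPMI vehicle replicate 2 (0.11), and that of EEF1E1 without hBMSC-CM vehicle replicate 3 (0.21) or RPMI vehicle replicate 1 (0.21) or 3 (0.26). Leaving out RPMI vehicle replicate 3 also ended the calls of IARS (0.15) and TARS (0.12), and leaving out RPMI vehicle replicate 2 that of HARS (0.12).

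Levels with quizartinib in hBMSC-CM were still below those of untreated cells in RPMI for most genes, in a comparison made of the same libraries as those above. Against vehicle in RPMI 29 of the 39 genes were lower and 1, HARS2, was higher (0.33), where 31.6% and 30.6% of all genes tested were. Among the cytosolic synthetases 18 were lower, with a median log2 difference of -0.32, and the largest differences were those of MARS (-0.84), GARS (-0.79), IARS (-0.68), FARSB (-0.66) and VARS (-0.65). DARS (0.08) and QARS (0.09) were not called. In the mitochondrial class 9 were lower, with a median of -0.19, among them AARS2 (-0.47) and VARS2 (-0.40). The fall of HARS (-0.12) was lost without RPMI vehicle replicate 1 (-0.10), which also brought in QARS (0.12), and that of WARS2 (-0.18) was lost without RPMI vehicle replicate 3 (-0.16) or hBMSC-CM quizartinib replicate 3 (-0.15).

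To compare levels between genes, CPM was divided by the length of the canonical GENCODE transcript in kb. With vehicle in RPMI the highest per length were TARS (162.5 CPM per kb), QARS (157), KARS (145), NARS (132) and GARS (122). The lowest cytosolic synthetase was FARSB (13.2), whose canonical transcript is 6.761 kb long. FARSA, the other subunit, had 101.4 CPM per kb with a length of 1.811 kb, so these values rest on the transcript chosen. The median was 99.3 CPM per kb for the cytosolic synthetases, 23.3 for the scaffolds and 15.9 for the mitochondrial synthetases, of which CARS2 was highest (48.7) and SARS2 lowest (2.32). TARS and QARS differed by less than the SD of QARS, 7.40 CPM per kb. With quizartinib in RPMI the medians were 43.1, 17.0 and 12.6 CPM per kb, and QARS (198.5) stood above TARS (79.8). In hBMSC-CM the medians were 107, 24.0 and 16.8 CPM per kb with vehicle and 68.9, 22.3 and 14.3 with quizartinib.

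Genes that act on tRNA beside the synthetases were taken from a list of 21, all of them tested, that covers mainly tRNA processing, export and editing. With quizartinib in RPMI 17 fell and 1 rose, where 39.2% and 40.1% of all genes tested did, with a median log2 fold change of -0.49. In hBMSC-CM 12 fell and 1 rose, against 33.7% and 33.4%, with a median of -0.19. Falls of more than 2-fold in RPMI included those of XPOT, the exporter of tRNA from the nucleus (-1.27), and PTRH2, a peptidyl-tRNA hydrolase (-1.24). XPOT had 412, 430.4 and 414 CPM with vehicle and 177, 173 and 169 CPM with quizartinib in RPMI. Vehicle in hBMSC-CM gave 434, 448 and 448 CPM, and quizartinib there gave 281, 274 and 266 CPM. Its groups followed the order of the lowered synthetases, with RPMI quizartinib lowest, and its interaction was 0.58 (adjusted p = 3.87e-08). The only one that rose was SEPSECS, which makes selenocysteine on its tRNA (0.76 in RPMI and 0.41 in hBMSC-CM). With quizartinib, hBMSC-CM had the higher level in 14 of the 21 and the lower level in 2, against 35.5% and 34.3% of all genes tested.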

How the data were processed

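RNA-seq of 12 MOLM-13 libraries, 3 replicates in each of 4 groups, was used, with groups and replicate numbers taken from the labels. The authors trimmed reads with BBDuk, aligned them to hg38 with STAR 2.6.0a, summed identifiers of the same gene name, and deposited raw counts per gene. Use of strand in counting is not given in the sources used here, and reads shared by overlapping genes cannot be reassigned. No column was left unused (0).

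Genes were kept when both the mean count and the mean CPM reached 1, 12998 of 30572 with a count. Counts were scaled by TMM and fitted with edgeR 4.0.16 (glmQLFit, glmQLFTest; R 4.3.3) in 1 model of 4 group means with 8 residual degrees of freedom, so all contrasts share an estimate of spread. P-values are two-sided, adjusted by the Benjamini-Hochberg method over all genes tested, with a threshold of 0.05. Total counts were 19966546 to 31546104 per library, and the floor of 3 counts covers counting error only. No replicate pair looked like 1 library deposited more than once (chi-square of 2.66 to 10.5 per gene). The scripts were tested on simulated counts. Alternatives used DESeq2 1.42.0 and limma 3.58.1 (voom and trend), other scalings and filters, a replicate block, and each library left out.

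The members and lists were chosen with earlier results of these data known. Values of every library were given for the 3 largest changes with quizartinib in RPMI in each class, for genes called against their class, and for the 3 largest interactions of each sign. For lists beside the members, counts and a few named genes were given, and some items are not reported here. Gene models are from GENCODE on GRCh38, found for all 39, and promoters from RefSeq on GRCh38.p14 for 33. Transcript lengths are those of canonical GENCODE transcripts, which may differ from those the cells use.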

Additional observations from a re-analysis of the deposited data

Results flagged for a closer look

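The response to quizartinib differed between hBMSC-CM and RPMI for 26 of the 39 genes by the interaction term of the edgeR fit at an adjusted p under 0.05, and each of these is listed because of that test. The difference, the log2 fold change in hBMSC-CM minus that in RPMI, was positive for 24 genes and negative for 2. In the complex it was LARS 0.80, IARS 0.75, MARS 0.47, DARS 0.31, RARS 0.21 and QARS -0.25. Among the other cytosolic synthetases it was VARS 1.31, FARSB 1.28, FARSA 0.97, YARS 0.57, TARS 0.53, NARS 0.49, AARS 0.47, WARS 0.45, GARS 0.32 and HARS 0.27. For the scaffolds it was AIMP2 1.09, EEF1E1 0.98 and AIMP1 0.32. In the mitochondrial class it was MARS2 1.23, EARS2 0.78, NARS2 0.71, VARS2 0.42, AARS2 0.26, LARS2 0.23 and TARS2 -0.26. QARS and TARS2, with the negative values, rose in RPMI, and the genes with positive values fell there. Groups of 3 were too small to look for single libraries that stand apart.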

How the results depend on the processing

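The alternatives were other scalings, other tests, other filters on low counts, a fit of only the groups compared, the replicate block and each library left out in turn, and they gave 5097 recomputed values of the 39 genes, of which 4988 kept their call or lack of one, 63 lost a call, 45 gained one and 1 reversed. With quizartinib in RPMI 0 of the 39 genes lost a call and 3 gained one, and the median of the cytosolic synthetases stayed between -1.10 and -0.89 on the log2 scale.

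Counts of genes that moved by more than 1.5 times were small ones. Of genes higher with quizartinib in hBMSC-CM (2), library size only gave 4, the DESeq2 Wald test 1, no filter on low counts 1, and leaving out a library 1 to 2. Of genes lower in hBMSC-CM with quizartinib (4), no filter gave 2 and leaving out a library 2 to 4. Of genes lower in hBMSC-CM with vehicle (0), library size only, a mean CPM of at least 10 and a fit of only the groups compared each gave 1 and upper-quartile factors 2. Of negative interactions (2), no filter gave 1. Of genes higher with quizartinib in hBMSC-CM than with vehicle in RPMI (1), library size only gave 4, upper-quartile factors 3, a mean CPM of at least 10 gave 3, and leaving out a library 1 to 2. The log2 fold change of TARS2 in hBMSC-CM with quizartinib turned to 0.10 and was called with library size only. The median of the mitochondrial synthetases in hBMSC-CM against RPMI with vehicle, 0.02, was -0.00284 with upper-quartile factors and -0.00426 to 0.0438 when a library was left out (lowest without hBMSC-CM vehicle replicate 3, and over 1.5 times higher without hBMSC-CM vehicle replicate 1 or RPMI vehicle replicate 2). Other medians of that class moved by over 1.5 times with quizartinib in hBMSC-CM (-0.24, but -0.139 with library size only and -0.16 with upper-quartile factors), with quizartinib in hBMSC-CM against untreated RPMI (-0.19, but -0.1002 with library size only), for hBMSC-CM against RPMI with quizartinib (0.103 without RPMI quizartinib replicate 1) and for the interaction (0.12, but 0.19 with no filter). The medians of the cytosolic synthetases moved by less than 1.5 times. The cause of these changes was not tested. Without TMM the log2 fold change of the median gene shifted by up to 0.104 (library size only, quizartinib in hBMSC-CM), and there 62.8% of all called genes were higher, against 49.8% with TMM. Upper-quartile factors shifted it by 0.102 with quizartinib in RPMI, and no filter by -0.103.

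With the replicate number as a block, 32 genes fell and 3 rose with quizartinib in RPMI, as without it, and in hBMSC-CM 30 fell in place of 31. Libraries that share a number did not deviate together (correlations of -0.227 to 0.0979 over 18 pairs of libraries), and 0 of 12 libraries correlated best with its own number, so the numbers were not taken to pair the samples. Depth limits the low genes most, among them SARS2 and PARS2, whose intervals are the widest.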

Other observations

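Beside the synthetases, a list of 14 genes of the integrated stress response was read, of which 13 were tested. It held genes that ATF4 is known to lead, together with ATF4 itself and the kinase gene EIF2AK4. Its counts are therefore not counts of ATF4 targets alone. With quizartinib in RPMI 8 fell and 3 rose, with a median log2 fold change of -0.42, and in hBMSC-CM 9 fell and 1 rose, with a median of -0.61. Over all genes tested 39.2% fell and 40.1% rose in RPMI, and 33.7% fell and 33.4% rose in hBMSC-CM. A fall of at least 2-fold was seen in 5 of the 13 in each medium, where 11.8% and 2.03% of all genes tested fell that far. In RPMI and hBMSC-CM these were STC2 (-3.54 and -1.83), CHAC1 (-3.34 and -3.12), PSAT1 (-2.37 and -1.73), TRIB3 (-1.95 and -1.41) and ASNS. CHAC1 was low with quizartinib, at 0.55 CPM in RPMI and 0.856 CPM in hBMSC-CM. In RPMI 1 gene, VLDLR, rose by at least 2-fold (1.42). With quizartinib in both arms 5 of the 13 were higher and 4 lower in hBMSC-CM than in RPMI, shares near the 35.5% and 34.3% of all genes tested. The 5 that were higher, named after their values were seen, were STC2 (2.29), TRIB3 (1.21), CEBPB (1.13), PSAT1 (0.84) and CEBPG (0.33) on the log2 scale. The 4 that were lower, named in the same way, were VLDLR (-1.13), SESN2 (-0.47), ATF4 (-0.23) and EIF2AK4 (-0.18). EIF2AK4 had risen with quizartinib in RPMI (0.49) and was the 1 that rose in hBMSC-CM (0.25). ATF4 itself had 456, 448 and 451 CPM with vehicle and 339, 328 and 346 CPM with quizartinib in RPMI. Its levels in hBMSC-CM were 472, 497 and 503 CPM without the inhibitor and 305, 270.4 and 287 CPM with it. It fell in both media, and its level with quizartinib was below that of RPMI in hBMSC-CM (-0.23 on the log2 scale, adjusted p = 0.000137, edgeR). ASNS, the asparagine synthetase, was near the filter at 2.17 to 2.70 CPM with vehicle and 0.695 to 0.931 CPM with quizartinib in RPMI. It fell in both media (log2 fold changes of -1.60 in RPMI and -1.94 in hBMSC-CM), with no call between the media with quizartinib (-0.41, adjusted p = 0.193). DDIT3, a further transcription factor of this response, was called higher with quizartinib in RPMI (0.27, adjusted p = 0.0155), a call lost without RPMI quizartinib replicate 1 (0.24) or RPMI vehicle replicate 1 (0.22) and with no filter on low counts (0.16).

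MYC, a transcription factor known to drive genes of protein synthesis, had 440.5, 413 and 435 CPM with vehicle and 47.2, 51.9 and 52.5 CPM with quizartinib in RPMI. With hBMSC-CM as the medium, the levels stood at 787, 775 and 800.1 CPM for vehicle and 583, 585 and 616 CPM for quizartinib. The RPMI quizartinib libraries were far below all others, and the hBMSC-CM quizartinib libraries were above the untreated RPMI libraries. MYC fell on the log2 scale by 3.09 in RPMI and by 0.40 in hBMSC-CM, with an interaction of 2.68 (adjusted p = 8.58e-17). FARSB, VARS and MARS2, which had the largest interactions among the synthetase genes, had the same order of groups with quizartinib, but with the inhibitor in hBMSC-CM they stayed below untreated cells. The core E-box CACGTG, to which MYC binds, was in 7.44% of the 27303 promoters and in 4 of the 33 members with a promoter (IARS, MARS2, CARS2 and EARS2). It is shown for the mitochondrial genes that hold it, with the letters in capitals, on the strand of the gene from 5′ to 3′ (GRCh38.p14).
MARS2, chr2:197705347-197705374, plus strand: tgcgcctctcaCACGTGctgtcagaacg
EARS2, chr16:23557349-23557376, minus strand: agggagaagccCACGTGtgctattccat
CARS2, chr13:110706502-110706529, minus strand: gctgggatgcaCACGTGcttcgctaaca
In each of these the match lay within 15 bases before the start, and in IARS 186 bases before it. The promoter of FARSB held no match, and no promoter window was available for VARS. Quizartinib in RPMI lowered MARS2 (-1.84), EARS2 (-1.09) and CARS2 (-0.47), and a match of letters is no measure of binding. No link between MYC or ATF4 and the synthetases was tested.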
